A study of Mus musculus with 6 samples.

Results

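The genes described here are a set of 9 chosen around the release of TNFα from the macrophage surface, and the part of each in it was not tested. The set holds the membrane proteases Adam17, Adam10, Adam8, Adam9 and Adam15, the inactive rhomboids Rhbdf1 and Rhbdf2, their partner Frmd8, and the inhibitor Timp3. These genes were picked by symbol among the 55335 gene rows of the count table, and each of the 9 matched 1 row. The cells were bone marrow-derived macrophages (BMDMs) of C57BL/6 mice, grown with L929-conditioned medium, which supplies macrophage colony-stimulating factor. Total RNA was sequenced after 1 h in PBS (3 libraries) or 1 h with lipopolysaccharide (LPS, the cell wall component of Gram-negative bacteria that signals through TLR4, 3 libraries). All 6 libraries were from wild-type (WT) cells, and no dose of LPS is given in the labels. The labels do not say whether the replicates came from separate mice or cultures, and the study says of its experiments in general that they were repeated independently. The p-values therefore measure the spread between these libraries, which may be technical.

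TNFα is made as a transmembrane protein and becomes soluble when it is cut close to the membrane. ADAM17, also called TACE, is the main enzyme for this cut in macrophages. It is a zinc metalloprotease that leaves the endoplasmic reticulum only when escorted by an iRhom, a rhomboid-like protein that has lost its own protease activity. In blood cells this escort is mostly iRhom2, encoded by Rhbdf2. FRMD8 holds the iRhom and ADAM17 complex at the cell surface, and TIMP3 is the tissue inhibitor that blocks ADAM17 most strongly.

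The 5 ADAM members share the zinc-binding site that makes them proteases, and the other 4 members lack it in their coding sequence. It was searched in frame, as the codons for 3 histidines, 1 glutamate and 1 glycine at the spacing of the metalloprotease zinc-binding motif, and was found in 70 of the 21901 genes with an annotated coding sequence (0.32%). The 33 bases of the coding strand are shown because they identify the enzymes of the set, with the 3 zinc-binding histidine codons in capitals (GENCODE M21 transcripts on GRCm38).
Adam17: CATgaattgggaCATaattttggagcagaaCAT
Adam10: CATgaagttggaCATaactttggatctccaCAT
Adam8: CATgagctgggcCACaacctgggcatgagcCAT
Adam9: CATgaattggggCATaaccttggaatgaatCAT
Adam15: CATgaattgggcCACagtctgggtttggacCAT
The Adam17 site begins at codon 424, in exon 12 of Adam17-202 (chr12:21336732-21336764, minus strand). The Adam8 site lies in exon 11 of Adam8-202 (chr7:139987893-139987925, minus strand), the Adam9 site in exon 11 of Adam9-204 (chr8:24990326-24990358, minus strand) and the Adam15 site in exon 11 of Adam15-201 (chr3:89344780-89344812, minus strand). In Adam10-201 the site is split between exons 9 and 10, so that chr9:70754296-70761585 (plus strand) includes the intron between them. Over these 33 bases, Adam17 was identical to Adam10 at 26 positions, to Adam9 at 25, to Adam15 at 23 and to Adam8 at 19.

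Library totals lay between 37787611 and 41516330 counts. Of the 8 macrophage markers examined, 8 were above 3 counts in at least 1 library, and their summed level lay between 29945 and 31229 CPM (counts per 1000000, after scaling by edgeR's TMM method) in PBS and between 35887 and 36245 CPM in LPS libraries. Lyz2 gave most of this sum (mean 23272 CPM in PBS and 24224 in LPS libraries), and Cd14 rose from 398 to 3623 CPM. Of the 8, 6 passed as higher, Fcgr1 passed as lower (-0.48 in log2) and Mertk (-0.04) did not pass. Markers of other cells reached in sum at most 0.708 CPM for T cells, 3.40 for B cells and 14.4 for fibroblasts and stroma in any library. The 6 neutrophil and precursor markers summed to between 33.6 and 35.8 CPM in PBS and between 44.3 and 46.2 CPM in LPS libraries. Of these, S100a8 (0.40 in log2) and S100a9 (0.37) passed as higher, and Ly6g, which defines mature neutrophils, had at most 3 counts in any library. The 4 dendritic cell markers together rose from between 3.15 and 4.01 CPM to between 9.62 and 10.6 CPM, with 4 of 4 past the test, against 32.9% of all tested genes as higher. Among them, Xcr1 had 2, 1 and 2 counts in PBS and 27, 17 and 15 in LPS libraries. Where 10 counts were required in every library, 3 of them were tested. The 4 endothelial genes, of which Kdr gave most of the signal, went from between 35.4 and 38.6 CPM to between 45.1 and 48.7 CPM. The part of these other cells in the results that follow was not tested. In bulk RNA, more cells of a type and more RNA per cell cannot be told apart.

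Rhbdf2, which encodes iRhom2 (chromosome 11, 116598165 to 116627019, minus strand), was the member that responded most. It had 2256, 2140 and 2039 counts in the PBS libraries and 5234, 4953 and 4884 in the LPS libraries. Every LPS library held more counts than any PBS library. The level was 46.3 ± 1.84 CPM in PBS and 150.4 ± 6.34 CPM in LPS libraries (SD, n = 3 each), a 3.25-fold rise. On the log2 scale this rise measured 1.70 with an SE of 0.041 (edgeR quasi-likelihood test, adjusted p = 7.74e-17), and 1.72, 1.68 and 1.70 between the libraries numbered 1, 2 and 3. Rhbdf2 was the 1 member of 9 past both criteria that the study set, namely 0.05 for the adjusted p and 1 for the size of the log2 change. Over all 15687 tested genes, 20.9% were past both, 10.5% as rises and 10.4% as falls. The smallest rise under any alternative was 1.29, with libraries scaled by their totals alone.

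Rhbdf1, the gene of iRhom1 (chromosome 11, 32209585 to 32222300, minus strand), was with Timp3 one of the 2 members of low level in these macrophages. It had 131, 130 and 121 counts in PBS and 92, 133 and 125 in LPS libraries. The groups overlapped, since LPS replicate 1 was the lowest of the LPS libraries and lay within the PBS range after scaling. The level was 2.75 ± 0.128 CPM in PBS and 3.50 ± 0.684 CPM in LPS libraries (SD, n = 3 each). The log2 change of 0.34 with an SE of 0.14 (edgeR, adjusted p = 0.0357) turned to -0.060 with scaling by library size, and its adjusted p was above 0.05 in 8 of 15 alternatives, among them DESeq2 (0.0648), limma voom (0.0526) and the fits without LPS replicate 2 (0.201), LPS replicate 3 (0.115), PBS replicate 1 (0.0661) or PBS replicate 3 (0.0990).

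The proportions of the 2 iRhom transcripts were compared inside each library, where scaling between libraries plays no part. Per kb of exon, there were 17.7, 16.9 and 17.3 Rhbdf2 reads for each Rhbdf1 read in the PBS libraries and 58.4, 38.2 and 40.1 in the LPS libraries. The lowest LPS value was above the highest PBS value. The difference was 1.37 on the log2 scale (p = 0.1, exact two-sided permutation test, the smallest p that 3 libraries against 3 allow, and 0.12 adjusted over 6 ratios), and 1.18 without LPS replicate 1. Neither gene shared a stretch of 50 bases with the annotated transcripts of any other gene, read on their own strands.

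**Figure D1:**
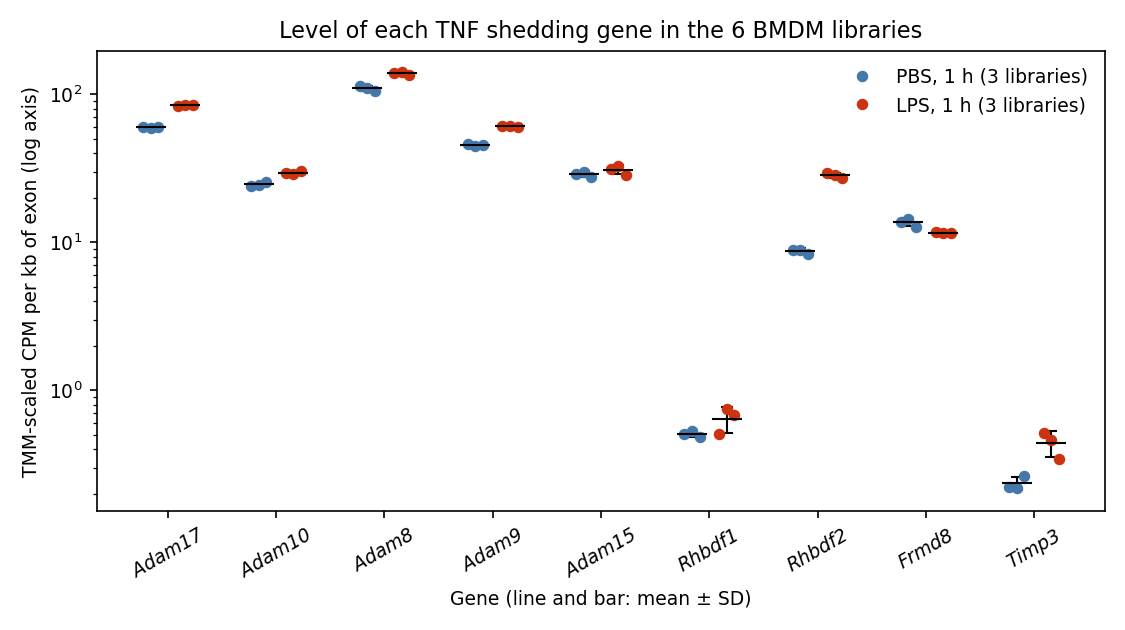
TMM-scaled CPM per kb of exon on a log axis for the 9 genes. Points are single libraries (blue, PBS; red, LPS; both at 1 h), and lines with bars are means ± SD over 3 libraries. The mean of Rhbdf2 moved from 8.75 to 28.4 CPM per kb, and its highest LPS library (29.5) lay among the values of Adam10 and Adam15. Rhbdf1 and Timp3 stayed below 1 CPM per kb in every library.

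Adam17 itself (chromosome 12, 21323509 to 21373632, minus strand) was abundant before LPS and changed far less than Rhbdf2. It had 20564, 19241 and 19786 counts in PBS and 20211, 19754 and 20579 in LPS libraries. These unscaled counts overlapped between the groups. After TMM scaling the level was 428.9 ± 2.99 CPM in PBS and 604.0 ± 1.58 CPM in LPS libraries (SD, n = 3 each), without overlap, as for 70.5% of the tested genes. The rise was 1.41-fold, or 0.49 in log2 with an SE of 0.031 (edgeR, adjusted p = 1.36e-10), and 0.089 (adjusted p = 0.0129) with scaling by library size alone, where the median of all tested genes moved by -0.40. Across its 15 alternatives, the adjusted p of Adam17 was at most 0.0129. Iah1, on the other strand, shares 311 exonic bases with Adam17 and had between 1695 and 1923 counts in PBS and between 1183 and 1187 in LPS libraries.

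The other 4 ADAM members were also expressed in every library at 4640 counts or more. Adam9 (chromosome 8, 24949611 to 25016927, minus strand), a widely expressed sheddase, had 9063, 8317 and 8679 counts in PBS and 8441, 8185 and 8494 in LPS libraries. It rose by 0.42 in log2 with an SE of 0.031 (edgeR, adjusted p = 1.33e-09), and the value was 0.014 (adjusted p = 0.687) with library size alone. Adam8 (chromosome 7, 139978932 to 139992562, minus strand), a sheddase of leukocytes, had 25206, 23286 and 22447 counts in PBS and 21732, 21525 and 21368 in LPS libraries. The rise was 0.34 in log2 with an SE of 0.037 (edgeR, adjusted p = 2.78e-07), and the value was -0.067 with library size alone (adjusted p = 0.0959). The scaled levels of both genes did not overlap between the groups, whereas the unscaled counts of Adam8 were lower in each LPS library than in any PBS library. The direction of Adam8 thus depended on the scaling.

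Adam10 (chromosome 9, 70678997 to 70780229, plus strand), which sheds Notch receptors and many other surface proteins, had 5663, 5387 and 5774 counts in PBS and 4839, 4640 and 5105 in LPS libraries. Its scaled levels did not overlap and rose by 0.26 in log2 with an SE of 0.035 (edgeR, adjusted p = 2.74e-06), whereas the change was -0.14 (adjusted p = 0.00160) with library size alone. Adam15 (chromosome 3, 89338542 to 89349996, minus strand), whose disintegrin domain binds integrins, had 8509, 8349 and 7825 counts in PBS and 6473, 6600 and 6014 in LPS libraries. The antisense gene 4731419I09Rik shares 1263 exonic bases with Adam15 and had at most 6 counts in any library. The scaled groups of Adam15 overlapped, at 177.7 ± 7.65 and 190.6 ± 12.9 CPM (SD, n = 3 each). The log2 change of 0.10 with an SE of 0.045 (edgeR, adjusted p = 0.0542) did not pass the test. It passed with the replicate number as a block (0.10, adjusted p = 0.00240), with DESeq2 (0.12, adjusted p = 0.0215), and without LPS replicate 3 (0.15) or PBS replicate 2 (0.13), was -0.042 with upper quartile scaling, and passed as a fall of -0.30 with library size alone (adjusted p between 6.59e-06 and 0.419 over the 15 alternatives).

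Adam17 was compared with Adam10 and with Adam8 inside each library. There were 2.49, 2.45 and 2.35 Adam17 reads per Adam10 read in PBS and 2.87, 2.92 and 2.77 in LPS libraries, per kb of exon. The log2 difference was 0.23 (p = 0.1 by the exact two-sided permutation test, 0.12 adjusted over 6 ratios). There were 1.89, 1.87 and 1.75 Adam8 reads per Adam17 read in PBS and 1.66, 1.68 and 1.60 in LPS libraries, a log2 difference of -0.16 (p = 0.1, same exact test, 0.12 adjusted). In both pairs the groups did not overlap, and the difference was under 1.2-fold for Adam17 against Adam10.

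Frmd8 (chromosome 19, 5849702 to 5875274, minus strand), the FERM domain partner of the iRhoms, was the 1 member that fell. It had 3336, 3320 and 3002 counts in PBS and 2007, 1919 and 1990 in LPS libraries. Each LPS library was below each PBS library, before and after scaling. The level was 69.5 ± 4.24 CPM in PBS and 59.0 ± 0.696 CPM in LPS libraries (SD, n = 3 each). The log2 change was -0.24 with an SE of 0.043 (edgeR, adjusted p = 1.10e-04), and it lay between -0.64 and -0.19 over 15 alternatives, with an adjusted p of at most 9.23e-04. The antisense gene Frmd8os, which shares 388 exonic bases with it, had 42, 38 and 50 counts in PBS and 12, 12 and 7 in LPS libraries. Rhbdf2 and Frmd8 changed places: per kb of exon there were 0.649, 0.619 and 0.652 Rhbdf2 reads per Frmd8 read in PBS libraries and 2.50, 2.48 and 2.36 in LPS libraries. That log2 difference was 1.93 (p = 0.1, exact two-sided permutation test, 0.12 adjusted over 6 ratios), with a range of 1.91 to 1.96 over comparisons that omit 1 library.

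Timp3 (chromosome 10, 86300372 to 86349506, plus strand), the inhibitor, was with Rhbdf1 one of the 2 members of low level. It had 86, 81 and 99 counts in PBS and 141, 123 and 95 in LPS libraries. LPS replicate 3 stood apart from the other 2 LPS libraries and, unscaled, lay inside the PBS range. The scaled level was 1.91 ± 0.200 CPM in PBS and 3.59 ± 0.722 CPM in LPS libraries (SD, n = 3 each). The log2 change was 0.90 with an SE of 0.15 (edgeR, adjusted p = 4.83e-05), with 1.22, 1.07 and 0.38 in the pairs numbered 1 to 3. It was 1.05 without LPS replicate 3, which puts 2 of 9 members past both criteria, and 0.50 (adjusted p = 0.00675) with library size alone. Timp3 lies within the gene Syn3 on the opposite strand, which shares 1733 exonic bases with it and had at most 2 counts in any library. Per kb of exon, there were 272.2, 270.4 and 227.5 Adam17 reads per Timp3 read in PBS and 163.2, 182.8 and 246.6 in LPS libraries, and the groups overlapped (log2 difference -0.40, p = 0.2, exact two-sided permutation test, 0.2 adjusted over 6 ratios).

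In all, 7 of the 9 genes were higher and 1 lower in LPS libraries at an adjusted p under 0.05, with a median log2 change of 0.34. Over all tested genes 67.7% passed, 32.9% as higher and 34.9% as lower, with a median of -0.013. With library size alone, 3 members passed as higher and 3 as lower, against a median of all genes of -0.42, and the genes past both criteria went from 1653 higher and 1624 lower to 1213 higher and 2964 lower. Set against the median gene under each of the 4 scalings (TMM, DESeq2's size factors, upper quartile, library size), Rhbdf2 was higher by 1.71, Timp3 by 0.92, Adam17 by 0.51, Adam9 by 0.43, Rhbdf1 by 0.36, Adam8 by 0.35, Adam10 by 0.28 and Adam15 by 0.11, and Frmd8 was at -0.22, on the log2 scale. Scaling moves all genes nearly alike, so that these differences from the median gene are the same under each scaling by construction.

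**Figure D2:**
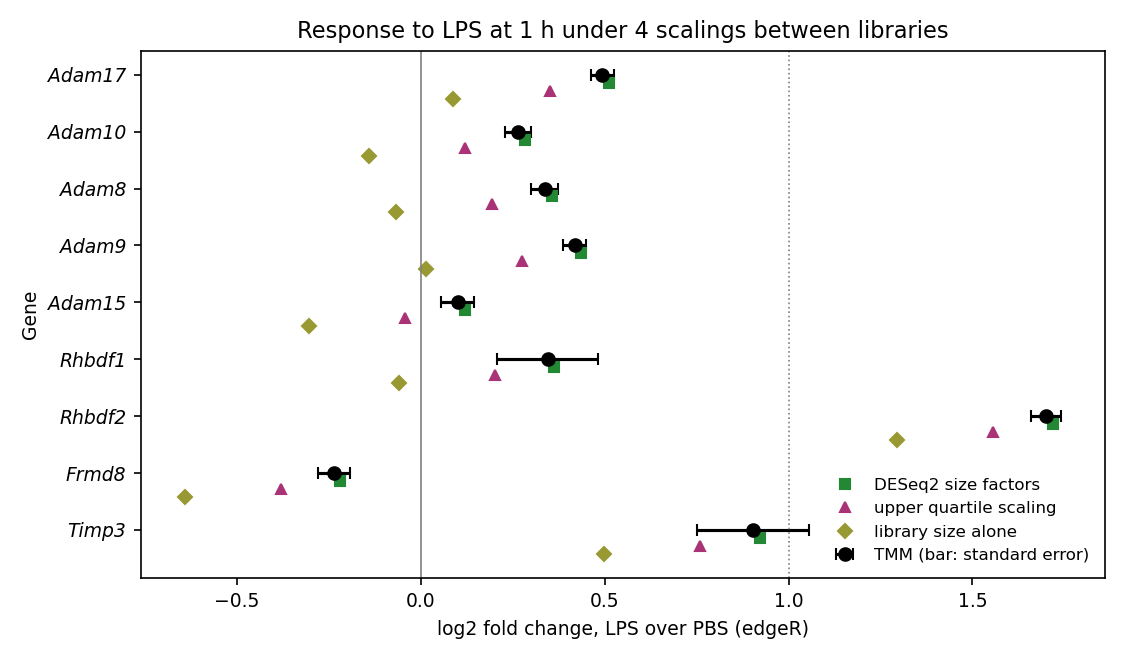
Log2 fold change of LPS over PBS for each gene from edgeR's fit under 4 scalings (black circles with standard errors, TMM; squares, DESeq2 size factors; triangles, upper quartile; diamonds, library size alone), with 0 and the fold criterion of 1 as vertical lines. Rhbdf2 lies to the right of 1 under each of them, between 1.29 and 1.72, while Adam8, Adam10, Adam15 and Rhbdf1 cross 0 with library size alone and Adam15 also with upper quartile scaling.

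Levels were compared between genes per kb of exon, which depends on the annotated exon length. In PBS libraries the order was Adam8 (110.1 ± 4.71 CPM per kb), Adam17 (59.9 ± 0.419), Adam9 (45.6 ± 0.769), Adam15 (28.9 ± 1.25), Adam10 (24.6 ± 0.712), Frmd8 (13.7 ± 0.834), Rhbdf2 (8.75 ± 0.347), Rhbdf1 (0.506 ± 0.0235) and Timp3 (0.235 ± 0.0246, all SD with n = 3). No neighbours in this order overlapped. In LPS libraries the order began with Adam8 (139.1 ± 3.45), Adam17 (84.4 ± 0.221) and Adam9 (60.9 ± 0.239), and Frmd8 was at 11.6 ± 0.137 CPM per kb. Rhbdf2 (28.4 ± 1.20) passed Frmd8 and its values overlapped those of Adam10 (29.6 ± 0.828), which in turn overlapped those of Adam15 (between 28.8 and 32.9). Rhbdf1 (0.644 ± 0.126) and Timp3 (0.440 ± 0.0887) remained at the end and overlapped each other in LPS libraries. The sum over the 9 genes was 292.3 CPM per kb in PBS and 386.1 in LPS libraries, and 336.1 and 335.4 with library size alone.

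The main substrate changed on another scale than its enzyme. Tnf had 1007, 935 and 872 counts in PBS and 78981, 75054 and 76710 in LPS libraries. In the PBS libraries there were 0.214, 0.212 and 0.192 Tnf reads per Adam17 read, per kb of exon, and in the LPS libraries 17.1, 16.6 and 16.3. The ratio was thus 80.8-fold higher in LPS libraries, a log2 difference of 6.34 (p = 0.1, exact two-sided permutation test, 0.12 adjusted over 6 ratios), with a range of 6.29 to 6.36 over comparisons that omit 1 library.

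**Figure D3:**
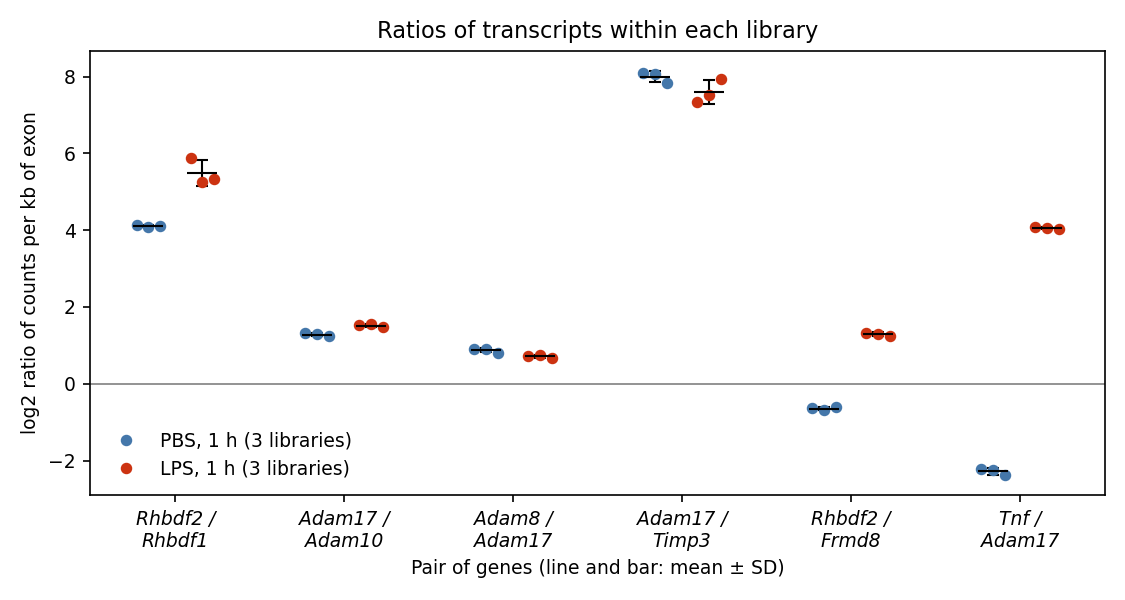
Log2 ratio of counts per kb of exon for 6 pairs of genes in each library (blue, PBS; red, LPS), with lines and bars for means ± SD over 3 libraries. Tnf over Adam17 moved from -2.28 to 4.06, Rhbdf2 over Frmd8 from -0.64 to 1.29 and Rhbdf2 over Rhbdf1 from 4.11 to 5.48, while the groups of Adam17 over Timp3 overlapped.

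Substrates of these proteases, Tnf among them, were examined as a list of 21 genes, of which 19 could be tested. Of these, 14 were higher, 2 lower and 3 not past the test, and 11 of the 14 had a log2 fold change above 1 (median of the list 1.14). With library size alone, 11 were higher, 9 of them above 1, and 5 were lower. Areg, Il1r2 and Ereg had under 10 counts in a PBS library and entered the test through their LPS counts. Where 10 counts were required in every library, 16 were tested, 11 higher, 8 of them above 1, and 2 lower (median 0.70). Over all tested genes in the TMM fit, 32.9% were higher, 34.9% lower, and 10.5% rises past both criteria. Ligands and adhesion molecules rose most: Areg, an EGF receptor ligand, had no counts in PBS and 4724, 4935 and 4686 in LPS libraries, Hbegf, another such ligand, had a log2 fold change of 5.04, and the adhesion molecules Icam1 and Vcam1 had 4.26 and 4.17. The decoy receptor gene Il1r2 rose by 6.20 and the TNF receptor gene Tnfrsf1b by 1.56, whereas Tnfrsf1a, the other TNF receptor gene, rose by 0.41. Il6ra, whose product is shed to give the soluble IL-6 receptor, had -0.42 and Trem2 -0.17 (adjusted p = 2.41e-08 and 4.79e-04 by edgeR's test). Mertk (-0.04) and Cd163 (0.11) were among those that did not pass, Tgfa had no counts in any library, and Lag3, at 2 to 25 counts, was too low to be tested.

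The next list held genes whose products mature or activate ADAM17. Of 12 genes, 10 were tested, 4 were higher and none passed as lower in the TMM fit (median 0.05), while 7 passed as lower and 1 as higher with library size alone. Over all 15687 tested genes, 32.9% passed as higher and 34.9% as lower in the TMM fit. With library size alone, 2354 of all genes passed as higher and 10337 as lower. Furin, the convertase that removes the prodomain of ADAM17, had 5070, 5024 and 4443 counts in PBS and 7930, 7937 and 7512 in LPS libraries. Its groups did not overlap, and its log2 change of 1.16 with an SE of 0.048 (edgeR, adjusted p = 2.33e-13) was the only one of this list above 1, and with library size alone 0 of the list were above 1. The others past the test were Prkca (0.60), Plk2 (0.42) and Mapk3 (0.18). The kinase gene Mapk14, which encodes p38α, had a log2 change of -0.0033 and did not pass. The convertase genes Pcsk5 and Pcsk6 had at most 2 counts in any library.

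Of the other inhibitors, Timp1 rose from 59, 64 and 46 counts to 389, 371 and 331 (3.16 in log2, SE 0.12, adjusted p = 1.31e-13 by edgeR). Timp2 had 0.15 (adjusted p = 6.80e-04), Reck, a membrane-anchored inhibitor, had -0.05 and did not pass, and Timp4 had at most 1 count. Among the 6 TspanC8 tetraspanins, which escort ADAM10 as the iRhoms escort ADAM17, 5 were tested. Tspan33 rose from 21, 14 and 14 counts to 83, 92 and 67 (2.77, SE 0.22, adjusted p = 3.92e-09), Tspan14, the most abundant, fell by 0.32 on the log2 scale (adjusted p = 1.27e-06), and Tspan5, Tspan10 and Tspan17 did not pass. Of 10 rhomboid-like genes other than the iRhoms, 7 were tested, 3 were lower (Rhbdd3 at -0.42, Rhbdd1 at -0.33 and Derl2 at -0.16) and none was higher in the TMM fit, with upper quartile scaling or with library size alone. For these lists too, the shares over all tested genes were 32.9% higher and 34.9% lower in the TMM fit.

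After shedding, the stub left in the membrane is cut by intramembrane proteases. Of 7 such genes, 5 were higher and 1 lower (median 0.21), while 7 passed as lower with library size alone. Over all 15687 tested genes, 32.9% were higher and 34.9% lower in the TMM fit, and 10337 were lower with library size alone. Sppl2a, which cuts the TNFα stub, had 0.32 (adjusted p = 4.24e-07 by edgeR's test), its relative Sppl2b -0.22 (adjusted p = 0.00150), and the γ-secretase gene Ncstn 0.29, with Psen2 at 0.21 and Psenen at 0.21. Aph1a (-0.07) did not pass.

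Most of the other 29 ADAM genes, many of them known from the male germ line, were not measurable here, and 8 were tested. Adam19 rose from 257, 246 and 221 counts to 284, 278 and 293 (0.71 in log2, SE 0.087, adjusted p = 1.02e-06 by edgeR) and Adam22 by 0.49. Adam33 fell by 0.30, Adam4 by 0.43 and Adam1a by 0.69 on the log2 scale. Adam4 was close to the limit (adjusted p = 0.0497 by edgeR), with -0.43, -0.92 and -0.05 between the libraries numbered 1, 2 and 3. Adam21 (12, 13 and 11 counts in PBS and 3, 1 and 1 in LPS libraries) and Adam3 (0, 4 and 6 in PBS and 25, 23 and 27 in LPS libraries) passed the test at counts near or under 3 in a group, and Adam32 did not pass. Of the 8, 3 passed as higher and 4 as lower, against 32.9% and 34.9% of all tested genes, and 3 passed as lower with DESeq2's test. The median of the 8 was 0.10.

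**Figure D4:**
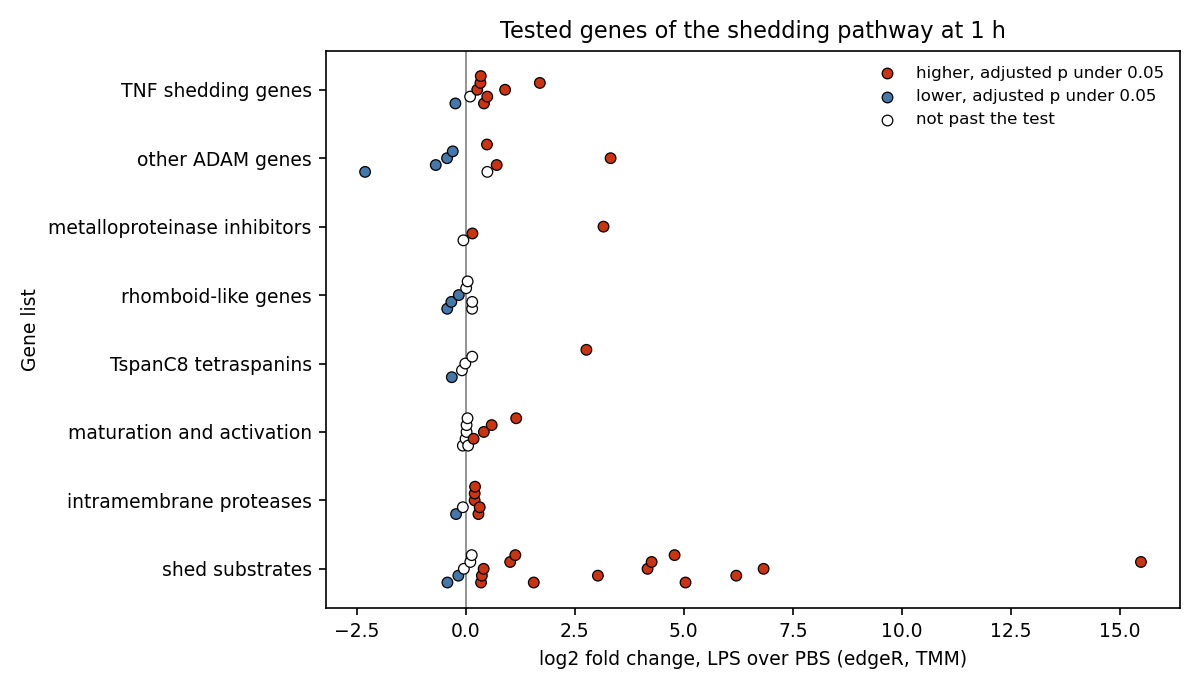
Log2 fold change of LPS over PBS (edgeR, TMM) for every tested gene of 8 lists, 1 point per gene (red, higher; blue, lower; white, not past an adjusted p of 0.05). Shed substrates reach 6.83 for Tnf, beyond which Areg has a fitted value that depends on the treatment of its absent PBS counts, and 8 of the 9 TNF shedding genes lie below 1.

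The promoters of 6 members are in the RefSeq promoter table (GRCm38.p6), and were searched over the 250 bases before the start site on both strands. None of the 6 held GGGA and TTCC separated by 2 bases, an NF-κB type of site found in 1.21% of 32851 such windows, or TGANTCA, the AP-1 type (6.75%), or TATAAA (12.4%). GGGCGG, the GC box bound by Sp1, was in 5 of the 6, against 32.7% of all windows. The Adam10 and Adam8 windows are shown as the most and the least GC-rich of the set (74.0% and 52.8%), with GC boxes of either strand in capitals, at chr9:70678732-70678981 (plus strand) and chr7:139992563-139992812 (minus strand).
Adam10: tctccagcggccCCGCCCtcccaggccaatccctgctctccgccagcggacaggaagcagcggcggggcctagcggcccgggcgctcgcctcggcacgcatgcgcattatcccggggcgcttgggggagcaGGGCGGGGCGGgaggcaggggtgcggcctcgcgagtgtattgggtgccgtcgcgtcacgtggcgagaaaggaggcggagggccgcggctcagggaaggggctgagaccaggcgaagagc
Adam8: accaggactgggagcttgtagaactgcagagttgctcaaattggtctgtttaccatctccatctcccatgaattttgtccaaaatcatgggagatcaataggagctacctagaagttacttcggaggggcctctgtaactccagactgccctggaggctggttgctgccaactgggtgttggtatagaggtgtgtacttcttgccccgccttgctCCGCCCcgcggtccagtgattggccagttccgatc
The Adam10 window held 3 GC boxes, 2 of which overlap, and the Adam8 window held 1, as did those of Adam17, Adam15 and Timp3, whereas that of Frmd8 held none. A match describes letters and not a bound site. Adam9, Rhbdf1 and Rhbdf2 were not searched.

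By level and response together, the protein-coding genes with the profile closest to Rhbdf2 were Baz1a, N4bp1 and Fchsd2, at distances of 0.211, 0.236 and 0.250 in log2 CPM over the 6 libraries, and their log2 fold changes were 1.67, 1.78 and 1.54. Among those close to Adam17 were Ubr4 and Litaf, at distances of 0.114 and 0.133, with log2 fold changes of 0.41 and 0.56. With 2 conditions this likeness describes a level and a difference only.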

How the data were processed

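Counts per gene of 6 BMDM libraries (3 PBS, 3 LPS, 1 h) were analysed, with groups and replicate numbers taken from the labels. The authors aligned the reads to GRCm38 with HISAT2 2.1.0, handled alignments with SAMtools 1.17, counted with featureCounts 2.0.0 and deposited raw counts without normalization. The strand setting, the annotation release and the treatment of reads with several matches are not given in the sources used here, so genes that overlap on opposite strands are uncertain. Identifiers were matched to GENCODE M21 without the version (55154 of 55335). Of the members' 50-base windows, at most 1.3% occurred in transcripts of other genes.

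Differences were tested in R 4.3.3 with edgeR 4.0.16 (filterByExpr, TMM, quasi-likelihood test, Benjamini-Hochberg over 15687 genes). Standard errors come from the quasi-likelihood F statistic. Genes at or under 3 counts were treated as at the floor, which covers counting error only. CPM are counts over TMM-scaled library totals, and levels per kb use the union of annotated exons. Ratios within libraries were compared by exact two-sided permutation tests. The labels give the replicate number also as a batch, so the numbers pair the libraries, although deviations of same-numbered libraries correlated only between -0.0139 and 0.0822 across genes. The study names pairwise comparisons and no block, and the block was an alternative, besides other scalings, filters, DESeq2 1.42.0, limma voom (limma 3.58.1) and leaving out each library. The functions were tested on simulated counts. Named genes were the members, their pathway lists (the highest and lowest responses of each and genes at the floor), and the nearest profiles; other list genes were named after their values were seen. Members and lists were chosen with earlier results of these data known. Some genes of these lists are not reported here.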

Additional observations from a re-analysis of the deposited data

How the results depend on the processing

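Each member was refitted under 15 alternatives, and Adam17, Rhbdf2, Frmd8 and Timp3 kept their direction and an adjusted p under 0.05 in each. The other 5 members changed direction or call with scaling, and Adam15 and Rhbdf1 also with the test or block used and with single libraries left out. With library size alone the log2 fold change was -0.14 for Adam10, -0.067 for Adam8, 0.014 for Adam9, -0.30 for Adam15 and -0.060 for Rhbdf1. With upper quartile scaling it was -0.042 for Adam15 and 0.20 for Rhbdf1, with DESeq2's size factors 0.12 for Adam15, with DESeq2's test 0.12 for Adam15 and 0.36 for Rhbdf1, with limma voom 0.33 for Rhbdf1, and with the replicate block 0.10 for Adam15. Leaving out each library in turn gave 0.057 to 0.15 for Adam15 and 0.22 to 0.49 for Rhbdf1. The replicate block (numbers shared as a batch in the labels) changed no other member's call. The number of members past both criteria as rises was 1 to 2 when each library was left out. With library size alone, 3 members passed as higher and 3 as lower, and over all genes 2354 passed as higher, 10337 as lower and 2964 as lower past both criteria, which also became 1027 where 10 counts were required in every library. The members' summed level was then 336.1 CPM per kb in PBS and 335.4 in LPS libraries.

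With library size alone, the genes passing as higher were 1 of the inhibitors, 1 of the maturation list and 0 of the intramembrane proteases. Also higher were 1 of the tetraspanins, 11 of the substrates and 2 of the other ADAM genes. As lower, 1 of the inhibitors, 6 of the rhomboid-like genes, 3 of the tetraspanins and 7 of the maturation list passed. So did 7 of the intramembrane proteases, 5 of the substrates and 4 of the other ADAM genes. Over all 15687 tested genes, 2354 passed as higher and 10337 as lower. With upper quartile scaling, 1 of the inhibitors, 1 of the tetraspanins and 2 of the intramembrane proteases passed as higher. So did 3 of the maturation list, 14 of the substrates and 3 of the other ADAM genes. As lower, 5 of the rhomboid-like genes, 2 of the tetraspanins, 6 of the maturation list and 2 of the intramembrane proteases passed. So did 3 of the substrates and 4 of the other ADAM genes. Over all 15687 tested genes, 3704 passed as higher and 7269 as lower with this scaling. That library size and upper quartile scaling move all genes alike follows from their construction, and other causes were not tested. At their depth, changes of Rhbdf1 and Timp3 rest on 81 to 141 counts per library, against 1919 or more for the other members.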
